A study of Homo sapiens with 3 samples.

Results

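The genes described here are 10 members of the BCL2 family, the proteins that set whether a cell keeps or opens its mitochondria in apoptosis. They are the survival genes BCL2, BCL2L1 and MCL1, the effectors BAX and BAK1, and the BH3-only genes BCL2L11, BBC3, PMAIP1, BID and BMF. Members were all probe sets that the platform annotation gives to 1 of these symbols alone. This found 30 probe sets for 9 of the 10 genes, among 41091 probe sets with 1 symbol for 19775 genes. BBC3 had 0, since the 1 probe set annotated to it also carries other genes, so BBC3 has no value here. The cells were U2OS, a line from a human osteosarcoma that is known to carry functional p53, and their biotin-labelled total RNA was read on Affymetrix arrays. All cells had received a retrovirus and were harvested 5 days after it. It carried Set8b_deltaPIP2, a stable form of the H4K20 methyltransferase Set8 that escapes the CRL4-Cdt2 ubiquitin ligase, or wt-Set8b, or no insert (pMSCV-vector). The labels do not say whether transduced cells were selected. There was 1 array per construct and thus no replicate, so every difference stands without a test.

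Survival proteins of the family bind and restrain BAX and BAK at the outer membrane of mitochondria. BH3-only proteins, which answer to particular stresses, occupy the survival proteins or switch on BAX and BAK directly. BAX and BAK then form pores that release cytochrome c, which assembles the apoptosome with APAF1 and activates caspases. The tumour suppressor p53 is known to raise transcription of BAX, BBC3 and PMAIP1, and forkhead factors of the FOXO class are known to act on BCL2L11.

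With stable Set8b, the survival gene BCL2L1 and the effector BAX read higher than with vector, and the BH3-only gene BCL2L11 read lower on every one of its probe sets. BAX also read higher with wild-type Set8b, while BCL2L1 and BCL2L11 had their high and low extremes on the stable Set8b array. BAK1 and the brightest probe sets of MCL1 and BCL2 lay within 1.5-fold in all 3 comparisons. BID read higher by less than 2-fold and BMF lower with stable Set8b. In bulk RNA, fewer cells that express a gene and less RNA per cell cannot be told apart.

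Promoter sequences are shown for the 3 genes with the widest differences from vector among probe sets at or above the median signal, since these lay in both directions and the promoters differ in the motifs they hold. Each is the 250 bases before the RefSeq gene start in GRCh38.p14, on the gene's own strand, and capitals mark a motif match. BAX lies at chr19:48954625-48954874 (plus strand), with the E-box CACGTG in capitals. BCL2L11 lies at chr2:111120664-111120913 (plus strand), with the forkhead motif GTAAACA in capitals. BCL2L1 lies at chr20:31723964-31724213 (minus strand) and held no match, so it has no capitals.
BAX: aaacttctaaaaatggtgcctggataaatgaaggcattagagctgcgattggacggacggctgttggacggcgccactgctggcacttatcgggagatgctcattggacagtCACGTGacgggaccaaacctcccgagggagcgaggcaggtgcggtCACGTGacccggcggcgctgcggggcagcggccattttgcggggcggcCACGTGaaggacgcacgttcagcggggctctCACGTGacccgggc
BCL2L11: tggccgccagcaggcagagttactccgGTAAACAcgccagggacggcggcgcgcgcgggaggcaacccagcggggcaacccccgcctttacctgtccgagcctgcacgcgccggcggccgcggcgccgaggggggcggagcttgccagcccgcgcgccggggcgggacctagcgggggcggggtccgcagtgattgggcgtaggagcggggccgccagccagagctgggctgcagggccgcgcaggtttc
BCL2L1: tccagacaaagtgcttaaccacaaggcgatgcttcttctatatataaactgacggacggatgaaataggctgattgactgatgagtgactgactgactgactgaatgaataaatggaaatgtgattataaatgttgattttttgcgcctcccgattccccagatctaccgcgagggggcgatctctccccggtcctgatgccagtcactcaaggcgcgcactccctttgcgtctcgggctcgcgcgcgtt

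Both strands were searched for CACGTG, which reads the same on either strand, for GTAAACA, for the E2F motif TTTGGCGC and for the p53 half-site. None of these matches overlapped another in the printed windows. BAX held 4 E-boxes, starting 138, 93, 45 and 14 bases before its start. An E-box also lay in the BBC3 window, 232 bases before its listed start. Overlapping windows of BID held 1 and the same E-box, which lay 106 and 47 bases before their respective starts. These BBC3 and BID windows do not lie at the gene start, and the BID window that does held 0. Of 35116 RefSeq windows of the same length, 6.35% held at least 1 E-box, and 5 (0.0142%), the BAX window included, held 4 or more. BCL2L11 held 1 forkhead match, starting 223 bases before its start, against 2.98% of all windows. The p53 half-site, in 5.57% of windows, was matched in BAK1 alone among the members with a window, and TTTGGCGC, in 0.550%, in none. Windows were found for 9 of the 10 genes, all but MCL1. A match describes the letters in this window and is no evidence of binding.

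The 3 arrays had median deposited signals between 38.6 and 42.8 and were quantile normalized, which gives them the same distribution. The ratio of 3' to 5' control probe sets ranged from 1.02 to 1.12 for GAPDH and from 7.33 to 7.995 for ACTB, the latter highest on the vector array. Its part in the differences was not tested. Of 8 mesenchymal and bone markers, 7 lay at or above the median signal of all probe sets (37.0), with VIM at 11101 or more on every array, while COL1A2 read 17.4 to 27.7. The leukocyte markers PTPRC and CD14 read at most 33.0, and CD3D and CD79A between 75.9 and 200.2. The epithelial keratins KRT8 and KRT18 read 3450 or more, and KRT19 at most 1.13. EPCAM read 431 (vector), 425 (wild-type Set8b) and 169 (stable Set8b), lower by 1.35 log2 than with vector. CDH1 read 38.1, 17.8 and 78.6 in the same order, higher by 1.05, or by 0.65 with signals below 50 set to 50. Summed signals were 32888 to 44471 over the 8 mesenchymal, 8715 to 10646 over 5 epithelial and 247 to 341 over 4 leukocyte markers. Each sum was highest with stable Set8b, and the part of other cell types in the results was not tested. KMT5A, which encodes Set8, had 4 probe sets. For wild-type Set8b over vector all 4 lay above 0, from 0.18 to 1.23 log2, the direction of that label. For stable Set8b over vector they ran from -0.76 to 0.90, and over wild-type Set8b from -1.08 to -0.06. The brightest read 252 with stable Set8b against 427 with vector, which goes against the label of the stable Set8b library, and whether these probes can read the transduced sequence is not known here. Every direction given for stable Set8b is that of the library so labelled.

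A probe set was counted as different at 2-fold, which is 1 on the log2 scale. For stable Set8b over vector, 5 of the 30 member probe sets were higher by 2-fold or more and 4 lower by as much, against 10.6% and 10.5% of all 54613 probe sets. At or above the median signal were 25 of the 30, from all 9 genes, and of these 3 were higher and 2 lower, against 5.33% and 5.52% of 27307 probe sets. These counts are small and several probe sets share a gene, so the counts are no result about the family as a whole. The median log2 difference of these 25 was -0.05, beside -0.02 over all probe sets of that brightness. The only spread at hand is that between probe sets of 1 gene on the same arrays. It had an SD of 0.44 log2 for stable Set8b over vector over 5952 genes with several probe sets at or above the median, and covers probe noise, not cultures.

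**Figure D1:**
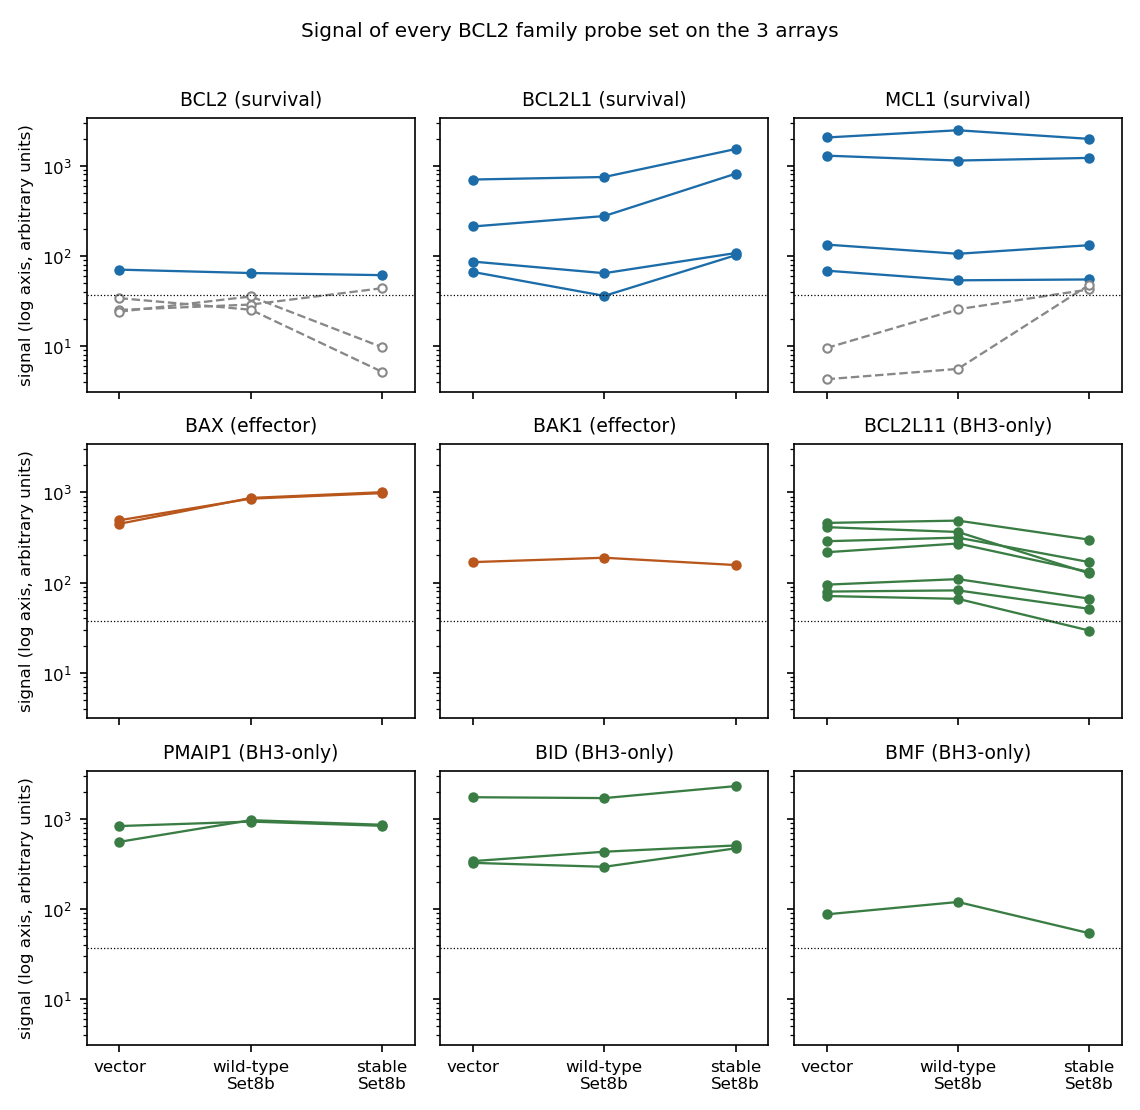
Quantile normalized signal (log axis, arbitrary units) of each of the 30 probe sets on the vector, wild-type Set8b and stable Set8b arrays, 1 panel per gene, with a line joining the values of 1 probe set. Grey dashed lines with open points are the 5 probe sets below the median signal of all (dotted line, 37.0). BCL2L1 ends at its highest values with stable Set8b and BCL2L11 at its lowest, and both BAX lines are lowest with vector.

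BCL2L1 encodes BCL-xL, a survival protein, and by alternative splicing a short form of opposite effect. All 4 of its probe sets were highest on the stable Set8b array. Probe set 212312_at read 703 (vector), 750.4 (wild-type Set8b) and 1533 (stable Set8b). The stable array stood 2.18-fold above vector (log2 1.12) and 2.04-fold above wild-type Set8b (1.03), while those 2 lay within 0.09 of each other. Probe set 231228_at read 212, 277 and 816 in the same order of arrays. It gave the widest difference of any member probe set at or above the median signal, 3.85-fold over vector (1.94) and 2.95-fold over wild-type Set8b (1.56). The wild-type array lay between the others at 0.38 over vector.

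The 2 dimmer BCL2L1 probe sets gave smaller differences from vector and put wild-type Set8b lowest. Probe set 215037_s_at read 86.4 (vector), 64.2 (wild-type Set8b) and 108 (stable Set8b), or 0.32 from vector and 0.74 from wild-type Set8b to stable Set8b. Probe set 206665_s_at read 66.3, 36.0 and 102, or 0.62 and 1.497. With signals below 50 set to 50, since dim signals may be background, the latter became 1.02. Over the 4 probe sets the SD for stable Set8b over vector was 0.71, wider than the 0.44 between probe sets of a gene in general. All 4 being higher is common: of 628 genes with 4 probe sets at or above the median, 18.6% had all of them higher over vector and 18% over wild-type Set8b. Wild-type Set8b over vector ran from -0.88 to 0.38, with 2 probe sets on each side. The direction with stable Set8b was thus shared by the probe sets, while its size depended on which was read.

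MCL1, a short-lived survival protein that binds PMAIP1 and BCL2L11 proteins, had 6 probe sets, 4 of them at or above the median signal. Its brightest, 200797_s_at, read 2059.5 (vector), 2477 (wild-type Set8b) and 1987 (stable Set8b). Probe set 200798_x_at read 1295, 1142 and 1222, 214056_at read 133, 105 and 131, and 214057_at read 68.5, 53.6 and 54.7. Vector was highest on 3 of these 4 and wild-type Set8b on the brightest. Stable Set8b over vector lay between -0.32 and -0.02 on them, within the spread between probe sets. Against wild-type Set8b it lay between -0.32 and 0.32.

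The other 2 MCL1 probe sets were dim. Probe set 200796_s_at read 9.50 (vector), 25.6 (wild-type Set8b) and 42.5 (stable Set8b), and 227175_at read 4.28, 5.57 and 47.7. Their log2 differences over vector of 2.16 and 2.64 (the second from a floor of 7.67) were the 2 highest of all member probe sets. All 6 of these signals lie below 50, so with that floor both differences are 0. They account for 2 of the 5 higher probe sets counted above.

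BCL2, the founding survival gene of the family, was read by 1 probe set at or above the median signal. Probe set 203685_at read 70.3 (vector), 64.5 (wild-type Set8b) and 61.1 (stable Set8b), at most 0.20 apart on the log2 scale. The other 3 were dim and disagreed. Probe set 203684_s_at read 24.0, 35.4 and 9.70, 207005_s_at read 33.9, 25.3 and 5.17, and 207004_at read 25.2, 28.8 and 43.8. Stable Set8b over vector came to -1.31, -2.15 and 0.80 on them, and to 0 on each with signals below 50 set to 50. No direction is therefore given for BCL2, and 2 of the 4 lower probe sets counted above are these.

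BAX, the effector that moves from the cytosol to mitochondria, read higher with both forms of Set8b than with vector. Probe set 211833_s_at read 449 (vector), 869 (wild-type Set8b) and 1006 (stable Set8b). Probe set 208478_s_at read 491, 853 and 982. Stable Set8b over vector was 1.16 on the first, 2.24-fold. On the second it was just short of the threshold at 0.999, and with values as deposited it passed at 1.01. Wild-type Set8b over vector was 0.95 and 0.80, and stable over wild-type Set8b 0.21 and 0.20. Both probe sets gave nearly the same differences, with an SD of 0.12 for stable Set8b over vector. So most of the BAX difference lay between vector and either form of Set8b. The remainder between the 2 forms was smaller than the spread between probe sets of a gene in general, 0.47. The 2 BAX probe sets themselves differed little in it (SD 0.006), and the spread between cultures was not measured.

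BAK1, the effector that resides in the outer membrane of mitochondria, had 1 probe set. Probe set 203728_at read 169 (vector), 188 (wild-type Set8b) and 156 (stable Set8b). Differences were -0.11 for stable Set8b over vector, -0.27 over wild-type Set8b and 0.16 for wild-type Set8b over vector, all within the spread between probe sets. BAK1 thus gave no difference beyond that spread where BAX read higher, and whether the 2 differ in this cannot be tested with 1 array per group.

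BCL2L11 encodes BIM, a BH3-only protein made in several spliced forms that binds all survival proteins of the family. Each of its 7 probe sets read lowest on the stable Set8b array. Probe set 1553096_s_at read 459 (vector), 487 (wild-type Set8b) and 299 (stable Set8b), 225606_at read 412, 364 and 126, and 1558143_a_at read 287, 315 and 169. Probe set 1555372_at read 217, 271 and 131, and 222343_at read 94.8, 109 and 66.3. The dimmest were 1553088_a_at with 79.4, 81.9 and 51.1, and 208536_s_at with 70.8, 66.0 and 29.3. On all 7 the vector and wild-type values lay within 0.32 log2 of each other, and the stable Set8b value lay below both.

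For stable Set8b over vector the 7 differences ran from -1.70 to -0.52 with a median of -0.73, and 2 passed 2-fold. The widest was 225606_at, 3.26-fold lower. The other, 208536_s_at at -1.27, came to -0.50 with signals below 50 set to 50. Against wild-type Set8b they ran from -1.53 to -0.68 with a median of -0.90, and 3 passed 2-fold (225606_at, 1555372_at at -1.05 and 208536_s_at at -1.17, the last -0.40 with the floor of 50). Wild-type Set8b over vector ran from -0.18 to 0.32, with 5 above and 2 below 0. The 29 genes with 7 probe sets at or above the median include BCL2L11 itself. Of these genes, 31% had all 7 lower over vector and 27.6% over wild-type Set8b. For wild-type Set8b over vector the share was 3.45%. A gene with all 7 lower is thus no rarity in either comparison with stable Set8b.

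BMF encodes a BH3-only protein held by the dynein light chain DYNLL2 of the myosin V motor. Its 1 probe set, 226530_at, read 87.7 (vector), 120.3 (wild-type Set8b) and 54.2 (stable Set8b). The stable array was lowest and the wild-type array highest. Stable Set8b was at -0.69 over vector and at -1.15 over wild-type Set8b, 2.22-fold lower, and wild-type Set8b was at 0.46 over vector.

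BID, a BH3-only protein that caspase 8 cleaves to carry a death receptor signal to mitochondria, was highest with stable Set8b on all 3 probe sets. Probe set 211725_s_at read 1749 (vector), 1710 (wild-type Set8b) and 2323 (stable Set8b). Probe set 227143_s_at read 342, 435 and 509.9, and 204493_at read 327, 296 and 474. Stable Set8b over vector was 0.41, 0.58 and 0.54, an SD of 0.09, so the probe sets gave like values short of 2-fold. Of 1556 genes with 3 probe sets at or above the median, 21.5% had all of them higher over vector. Over wild-type Set8b the 3 differences were 0.44, 0.23 and 0.68, with 23.4% of such genes all higher.

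PMAIP1 encodes NOXA, a BH3-only protein that binds MCL1. Both of its probe sets were highest with wild-type Set8b and lowest with vector. Probe set 204286_s_at read 559 (vector), 973 (wild-type Set8b) and 865 (stable Set8b), and 204285_s_at read 837, 938 and 842. Stable Set8b over vector was 0.63 on the first and 0.01 on the second, and wild-type Set8b over vector 0.80 and 0.16. Stable over wild-type Set8b was -0.17 and -0.16. Neither probe set passed 2-fold, and which of them is read decides whether PMAIP1 differed from vector.

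**Figure D2:**
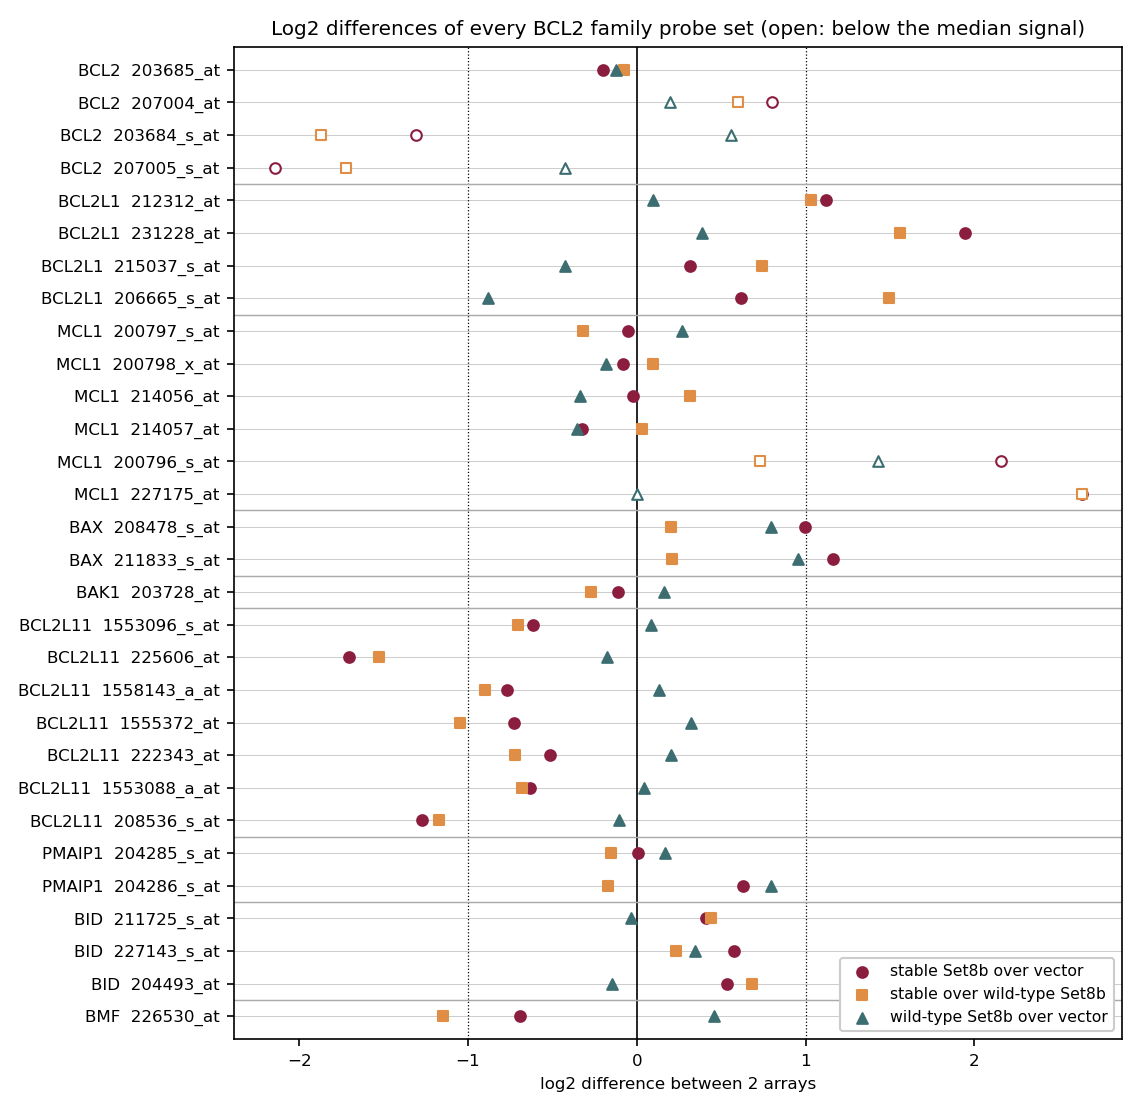
Log2 difference between 2 arrays for each of the 30 probe sets, grouped by gene, with circles for stable Set8b over vector, squares for stable over wild-type Set8b and triangles for wild-type Set8b over vector. Open symbols are probe sets below the median signal, dotted lines mark 2-fold, and for MCL1 227175_at the circle lies under the square. Circles and squares of BCL2L11 lie left of 0 and those of BCL2L1 right of 0, while BAX triangles lie close to its circles.

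For stable over wild-type Set8b, 4 member probe sets were higher by 2-fold or more and 6 lower by as much, against 10.9% and 10.9% of all probe sets. At or above the median signal, 3 of 25 were higher, all of BCL2L1, and 4 were lower, of BCL2L11 and BMF, against 5.35% and 5.32%. This comparison shares the stable Set8b array with the one over vector, so the 2 are not separate evidence. By role in this comparison, the 13 BH3-only probe sets had a median of -0.70, with 10 below 0, while the 9 survival gene probe sets at or above the median signal had 0.32, with 7 above 0. Of those 13, 7 belong to BCL2L11 alone, and of those 9, 4 to BCL2L1, so these medians weigh 1 gene more than the others. Over vector the same 9 survival gene probe sets had a median of -0.02, with 4 above and 5 below 0, and the 13 BH3-only probe sets -0.62, with 8 below 0, so the higher survival median was not seen there. All probe sets at or above the median signal had a median of -0.02.

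For wild-type Set8b over vector, 1 of the 30 member probe sets was at least 2-fold higher and 0 lower, against 9.07% and 8.81% of all probe sets. The 1 was the dim MCL1 200796_s_at. At or above the median signal 0 of 25 passed 2-fold in either direction, against 2.06% and 1.84%. The widest differences there were BAX 211833_s_at at 0.95, PMAIP1 204286_s_at at 0.80 and BAX 208478_s_at at 0.80 on the higher side, and BCL2L1 206665_s_at at -0.88 on the lower. The last was -0.41 with signals below 50 set to 50.

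**Figure D3:**
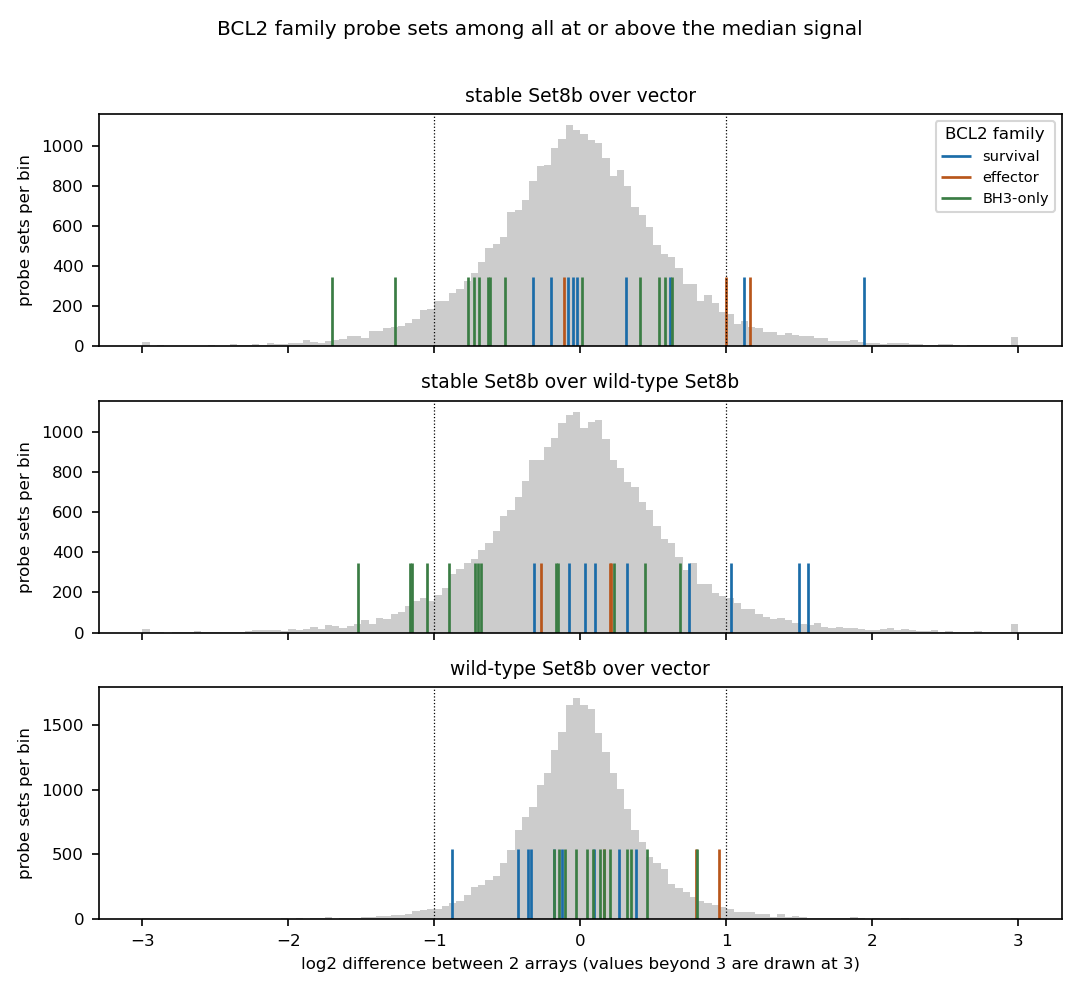
Grey bars count all 27307 probe sets at or above the median signal by log2 difference, in 1 panel for each comparison, and coloured lines mark the 25 member probe sets by role. Dotted lines mark 2-fold. Member lines spread over the grey distribution, with 5 past 2-fold in the top panel, 7 in the middle and 0 in the bottom panel.

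By the order of the 3 arrays, the 25 member probe sets at or above the median signal were highest on the stable Set8b array in 9 cases and lowest in 11, against 37.4% and 40.3% of all probe sets of that brightness. The wild-type Set8b array was highest in 10 and lowest in 7 (30.5% and 29.9%), and the vector array was highest in 6 and lowest in 7 (32.1% and 29.8%). The 11 on the low side were the 7 of BCL2L11, the 1 each of BMF, BAK1 and BCL2 and 1 of MCL1, and the 9 on the high side were the 4 of BCL2L1, the 3 of BID and the 2 of BAX.

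Other genes of cell death were read by the brightest probe set of each at or above the median signal. Of 79 listed genes 72 had a probe set with 1 symbol, and 64 of these were compared. With stable Set8b over vector, 6 were at least 2-fold higher and 0 lower, against 5.72% and 5.12% of all 12631 genes. Over wild-type Set8b 6 were higher and 1 lower, against 4.96% and 5.23%. For wild-type Set8b over vector 0 of 64 passed in either direction, against 1.67% and 1.05%. The 6 over vector were BCL2A1, FAS, TNFRSF10B, MDM2, TP53INP1 and CDKN1A, and the 1 lower over wild-type Set8b was SIVA1 at -1.04. BCL2A1 passed the median filter only through its stable Set8b signal, so its place in these counts carries no weight.

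Among 15 other BCL2 family and mitochondrial genes, 1 passed 2-fold over vector, against 5.72% of all genes higher and 5.12% lower. This was BCL2A1, a survival gene known as a target of NF-kB, whose 1 probe set read 18.9 (vector), 34.7 (wild-type Set8b) and 159 (stable Set8b). Its difference of 3.07 is at least 1.67 with the dim side set to 50. The vector and wild-type Set8b signals lay below the median of 37.0, so BCL2A1 was compared only because it read high with stable Set8b. BNIP3L, which acts in removal of mitochondria, was at 0.49 and BNIP3 at 0.34. Lowest were the nuclear factor BCLAF1 at -0.54, BCL2L12 at -0.21 and the membrane channel VDAC3 at -0.21. The median of the list was 0.22, beside -0.004 over all genes. Over wild-type Set8b 12 of the 15 lay above 0, among them BCL2A1 at 2.19, or at least 1.67 with the same floor, and BNIP3 at 0.92.

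The 13 caspases and apoptosome genes had 0 past 2-fold in any comparison, and a median of -0.12 over vector. Of all genes, 5.72% were at least 2-fold higher with stable Set8b over vector and 5.12% lower. The initiator CASP8, which cleaves BID, was at 0.28 over vector and 0.86 over wild-type Set8b, the nuclease subunit DFFB at 0.24 and its inhibitor DFFA at 0.18. Lowest were the mitochondrial nuclease ENDOG at -0.67, CASP2 at -0.58 and CASP6 at -0.51. CASP8 had 3 probe sets from -0.49 to 2.30 over vector and CASP2 had 7 from -1.37 to 0.32, so their directions depend on the probe set. Of the 6 inhibitors of apoptosis, 0 passed 2-fold by the brightest probe set. BIRC5, survivin, which also acts in mitosis, was at -0.91, with 4 probe sets from -1.07 to -0.62. BIRC6 was at 0.46, BIRC2 at 0.30, XIAP at 0.17, NAIP at -0.60 and BIRC7 at -0.36.

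Of 7 death receptor pathway genes compared, 2 were at least 2-fold higher with stable Set8b over vector and 0 lower. The shares of all genes were 5.72% and 5.12%. The receptor FAS read 187 (vector), 208 (wild-type Set8b) and 793 (stable Set8b) (2.08), and its 5 probe sets ran from 0.62 to 2.70. The TRAIL receptor TNFRSF10B read 1019, 1406 and 2866 (1.49), though its 4 probe sets ran from -0.12 to 1.49. The adaptor TRADD was at 0.60, the receptor TNFRSF1A at -0.48, and the adaptor FADD, which links FAS to CASP8, at -0.38. CFLAR, an inhibitor of CASP8, was at 0.28 by the brightest of 14 probe sets, which ran from -1.40 to 2.34.

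Among 12 p53 targets linked to cell death, 4 were at least 2-fold higher over vector and 0 lower. Of all genes, 5.72% were higher by as much and 5.12% lower. The median of the list was 0.60. The 4 were CDKN1A at 2.65, TP53INP1 at 2.21, FAS and TNFRSF10B, and the last 2 also stand in the death receptor list. The list was chosen with earlier results of these data known, so it does not independently support its direction. The lowest were SIVA1 at -0.81 and APAF1, the scaffold of the apoptosome, at -0.45. TP53AIP1 was at 0.17. Beside these, the p53-responsive members read 1.16 and 0.999 (BAX) and 0.63 and 0.01 (PMAIP1) over vector. With wild-type Set8b over vector CDKN1A was at 0.85, TP53INP1 at 0.82, FAS at 0.16 and TNFRSF10B at 0.46, beside 0.95 and 0.80 for BAX.

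Of 14 regulators of BCL2 family genes or proteins, 1 passed 2-fold over vector, against 5.72% of all genes higher and 5.12% lower. This was MDM2, the ubiquitin ligase of p53, at 1.41, with 10 probe sets from -0.62 to 2.39. FBXW7, part of a ligase that can mark MCL1 for destruction, was at 0.82, and the stress factor DDIT3 at 0.42. Lowest were E2F1 at -0.56, FOXO1 at -0.46 and TP73 at -0.36. FOXO3, whose protein is known to act on the BCL2L11 promoter, was at 0.28 over vector by the brightest of its 4 probe sets, which ran from -1.78 to 0.68, and DYNLL2, the partner of BMF, at -0.18. Over vector, probe sets of FOXO1 ran from -0.46 to 2.03 and those of TP73 from -0.36 to 1.05, so their directions depend on the probe set. Probe sets of BCLAF1, VDAC3, CASP6, XIAP, NAIP, APAF1, TP53AIP1, FBXW7 and DYNLL2, dim ones included, also lay on both sides of 0. FOXO3, DYNLL2 and CFLAR were named after their values were seen.

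**Figure D4:**
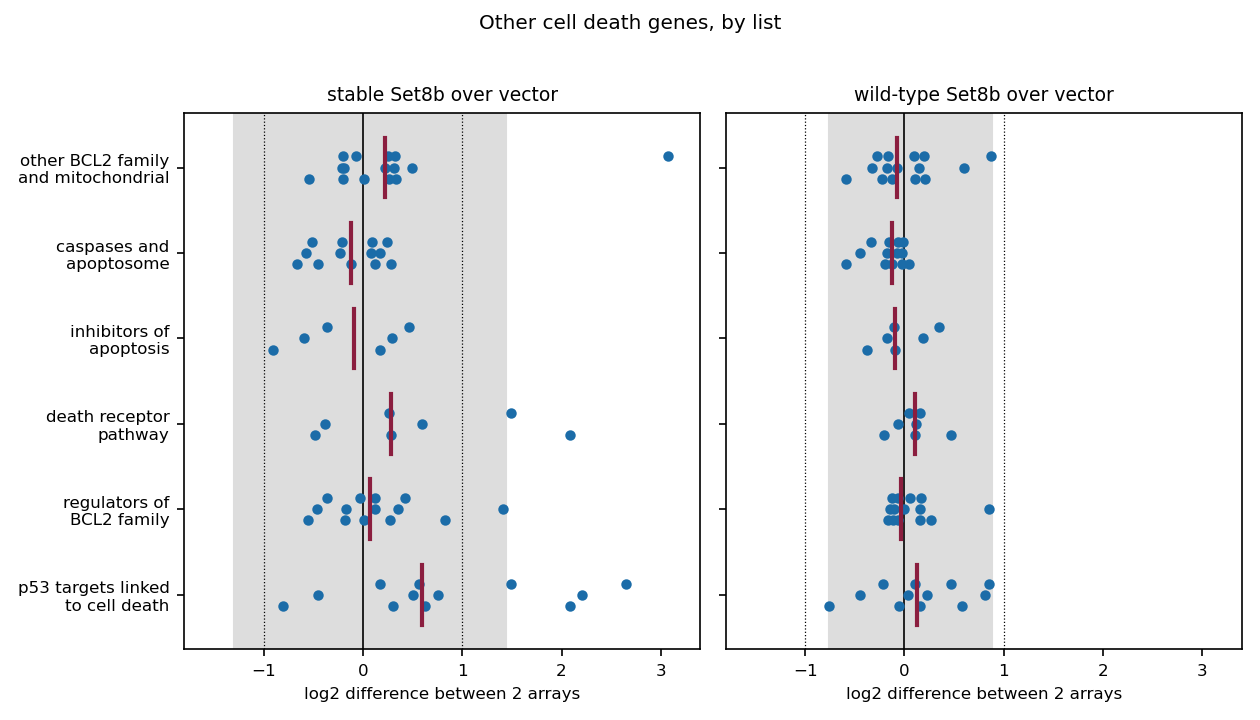
Log2 difference of each compared gene in 6 lists of other cell death genes (blue points, 1 per gene by its brightest probe set), for stable Set8b over vector on the left and wild-type Set8b over vector on the right. Dark red bars are list medians, the grey band holds the central 95% of all 12631 genes, and dotted lines mark 2-fold. On the left the points beyond the dotted lines are all on the higher side, and on the right no point passes them.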

How the data were processed

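Total RNA was hybridised to Affymetrix arrays, 1 per construct, per the labels' protocols. The authors deposited a linear intensity for each of 54675 probe sets per array, of which the 62 controls were left out. Which software made them is not stated. Each array had a 2% trimmed mean of 250.0, so a common scaling had been applied. No detection calls were used.

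Python 3.11.15 with numpy 2.4.6, pandas 2.3.3 and matplotlib 3.10.9 was used. Log2 medians of the arrays spanned 0.149, so arrays were quantile normalized, raised to a floor of 7.67 (the 20th percentile) and log2 transformed. Printed signals are before the floor. Quantile normalization removes any overall shift between arrays, and background compresses dim differences. All 9 member genes matched RefSeq by Entrez identifier. Differences of 2 arrays have no test and were counted at 2-fold. The number of arrays limits the precision. The steps were tested on simulated data with changes planted in bright probe sets only, so recovery of differences at dim signals was not tested.

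The members and lists were chosen with earlier results of these data known. All member probe sets are named, and from each list up to 3 of the highest and 3 of the lowest genes over vector. Of the 79 listed genes, 7 were not analysed here. Of the other 72, only the 64 with a probe set at or above the median signal were compared. Alternatives were values as deposited, median centring, no floor, floors at the 40th percentile and at 50, the median filter, leaving out _x_at and _s_at probe sets, 1.5-fold and 3-fold thresholds, and the mean or median over a gene's probe sets.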

Additional observations from a re-analysis of the deposited data

How the results depend on the processing

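Counts of member probe sets past 2-fold changed with the treatment of dim signals, with leaving out _x_at and _s_at probe sets and with the threshold. For stable Set8b over vector the 5 higher and 4 lower became 3 and 2 with a floor at the 40th percentile, 3 and 1 with a floor at 50, 3 and 2 with only probe sets at or above the median signal, 3 and 1 without _x_at and _s_at probe sets, 9 and 9 at 1.5-fold, and 3 and 2 at 3-fold. For stable over wild-type Set8b the 6 lower became 3 with a floor at 50, 3 without _x_at and _s_at probe sets, 10 at 1.5-fold and 2 at 3-fold, and the 4 higher became 8 at 1.5-fold and 1 at 3-fold. For wild-type Set8b over vector the 1 higher became 0 with either stricter floor, with only probe sets at or above the median signal, without _x_at and _s_at probe sets and at 3-fold, and 4 at 1.5-fold, where 1 was lower in place of 0. Fewer probe sets are counted without _x_at and _s_at (15) and at or above the median signal (25). Values as deposited, median centring and no floor left the counts within 1.5 times. The shares of all probe sets called move too, given here as higher and lower. For stable Set8b over vector they were 10.6% and 10.5% in the main setting. They became 3.44% and 3.24% with a floor at the 40th percentile, and 2.05% and 1.91% with a floor at 50. They became 5.33% and 5.52% at or above the median signal, and 11.3% and 11.2% without _x_at and _s_at. At 1.5-fold they were 19.2% and 19.7%, and at 3-fold 4.52% and 4.02%. For stable over wild-type Set8b they were 10.9% and 10.9% in the main setting, and 1.96% and 1.79% with a floor at 50. They became 11.7% and 11.6% without _x_at and _s_at, 19.6% and 19.8% at 1.5-fold, and 4.61% and 4.26% at 3-fold. For wild-type Set8b over vector they were 9.07% and 8.81% in the main setting, and 1.58% and 1.32% with a floor at the 40th percentile. They became 0.392% and 0.333% with a floor at 50, and 2.06% and 1.84% at or above the median signal. Without _x_at and _s_at they were 10% and 9.64%, at 1.5-fold 15.9% and 15.9%, and at 3-fold 3.84% and 3.66%. Of 504 alternative values of single probe sets or genes, 21 moved by more than 1 SD of the spread between a gene's probe sets with dim ones included (0.76 for stable Set8b over vector, 0.78 over wild-type Set8b and 0.75 for wild-type Set8b over vector, wider than the 0.44 among brighter ones), and 0 of those past 2-fold changed sign. A change of floor alone cannot reverse a sign, so for those settings that 0 was fixed in advance. No paired analysis was possible because each group has 1 array. Signals below 50 carry no direction here, which leaves 3 BCL2 and 2 MCL1 probe sets without one.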
